A study of Mus musculus with 6 samples.

Results

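The tripartite motif (TRIM) family was examined in resting macrophages from a Gps2 knockout. Its members were the genes whose only platform symbol starts with Trim followed by a digit, and 59 such genes were found among the 18820 tested genes. Where several probe sets measured a gene, the brightest on average stood for it. Of the 59 Trim genes, 36 had a mean log2 signal above 5.49, the 40th percentile of all gene means, and 23 lay at or under this dim limit. Signals under the limit hold more background, which compresses their differences.

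RNA came from unstimulated bone marrow-derived macrophages of male mice. Wild-type cells (WT) gave 3 arrays, and cells labelled as GPS2 knockout (GPS2KO) gave the other 3. The mice were 12 to 16 weeks old, and the marrow cells of both groups were grown for 7 days in medium with 30% supernatant of L929 fibroblasts, which supplies macrophage growth factor, and 10% serum. The labels name the knockout as a macrophage GPS2 KO and the mice as MKO, but give neither a Cre driver nor the deleted exons, and do not tie an array to 1 animal. The p-values therefore measure the spread between these samples only, which may be technical. The comparison asks which genes depend on GPS2, which is part of the NCoR-SMRT co-repressor complex, before any stimulus.

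TRIM proteins typically hold an N-terminal RING domain, which some members lack, B-boxes and a coiled coil. Most act as ubiquitin ligases. The RING domain recruits an E2 enzyme charged with ubiquitin, and the C-terminal domain, often a PRY-SPRY fold, chooses the substrate. Many TRIM proteins restrict viruses or set the strength of signalling from RIG-I, MDA5, cGAS and Toll-like receptors. Several are themselves induced by interferon, so the family is both a target and a regulator of innate immune signalling in macrophages.

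The labels were checked on Gps2 and on marker genes. Gps2 fell by 0.75 on the log2 scale (SE 0.0472, n = 3 each; limma adjusted p = 0.000256), to 59.7% of the WT signal, and its groups did not overlap. Most of its signal remained on the GPS2KO arrays, at a mean of 10.21, and without the deleted exons it is not known whether the probe set lies in the deleted part. All 7 macrophage markers lay above the dim limit, with a mean of 12.03 to 12.07 on the WT arrays and 12.14 to 12.15 on the GPS2KO arrays. All 6 markers of T and NK cells lay at or under the limit, as did 5 of 7 of neutrophils, 5 of 8 of dendritic cells, 3 of 5 of B cells and 1 of 3 of erythroid cells and megakaryocytes. Of 7 fibroblast markers 1 did, and Col1a1, a collagen chain, had a WT mean of 11.97. The fibroblast mean ran from 8.17 to 8.26 in WT and from 8.16 to 8.26 in GPS2KO. The means of B cell markers ran from 5.84 to 5.86 and from 5.71 to 5.75, those of dendritic cells from 5.12 to 5.20 and from 5.24 to 5.31, those of neutrophils from 5.20 to 5.27 and from 5.23 to 5.36, those of T and NK cells from 4.44 to 4.46 and from 4.40 to 4.42, and those of erythroid cells and megakaryocytes from 7.38 to 7.54 and from 7.45 to 7.58. Of the markers, Mertk, Itgam, Dcn, Itgax, Ngp and Pf4 rose and Thy1, Col1a1 and Cd79b fell; the most marked was Itgax, an integrin of dendritic cells and macrophages, at 1.00. Their part in the Trim differences was not tested, and in these bulk samples fewer cells of a type cannot be told apart from less RNA per cell.

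Most Trim genes differed little between the groups. Of the 59, 1 rose, Trim6, and 2 fell, Trim56 and Trim30d, while 56 did not pass the threshold of 0.05 on limma's Benjamini-Hochberg adjusted p. This was 5.08% of the Trim genes, beside 6.72% of all tested genes, with 2.90% of all genes rising and 3.83% falling. Among the 36 members above the dim limit 0 rose and 2 fell (5.56%), beside 10.6% of all genes above it, of which 4.54% rose and 6.06% fell. When the genes at or under the limit were left out of the fit, 7 of these 36 passed (19.4%), 1 higher and 6 lower. This was near the share of all genes kept that passed, 17.4%. Of the 59, 11 had an unadjusted p under 0.05 (18.6%), beside 3906 of all 18820 genes (20.8%). The median difference, GPS2KO minus WT on the log2 scale, was -0.00099 over the Trim genes and -0.0077 over all genes. The median size of the difference without its sign was 0.064 for Trim genes and 0.062 for all genes. Centring each array on its median, which moved the share of rises among all called genes from 43.1% to 30.2%, gave 1 rise and 5 falls among Trim genes.

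The intervals were narrow, but they rest on the spread between these samples only, which may be technical. The standard errors of the 36 members above the dim limit ran from 0.0352 to 0.0946, with a median of 0.0463. The 95% confidence intervals of 26 of these 36 lay wholly within a 1.2-fold change in either direction, and those of all 59 lay within 1.5-fold. The 59 include the dim genes, whose differences background compresses. The lowest bound of any interval above the dim limit, -0.34, belonged to Trim30d, and the highest, 0.34, to Trim67. Another family of RING ligases, the Rnf genes picked by the same symbol rule, had 79 tested members, of which 3 rose and 1 fell (5.06%).

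**Figure D1:**
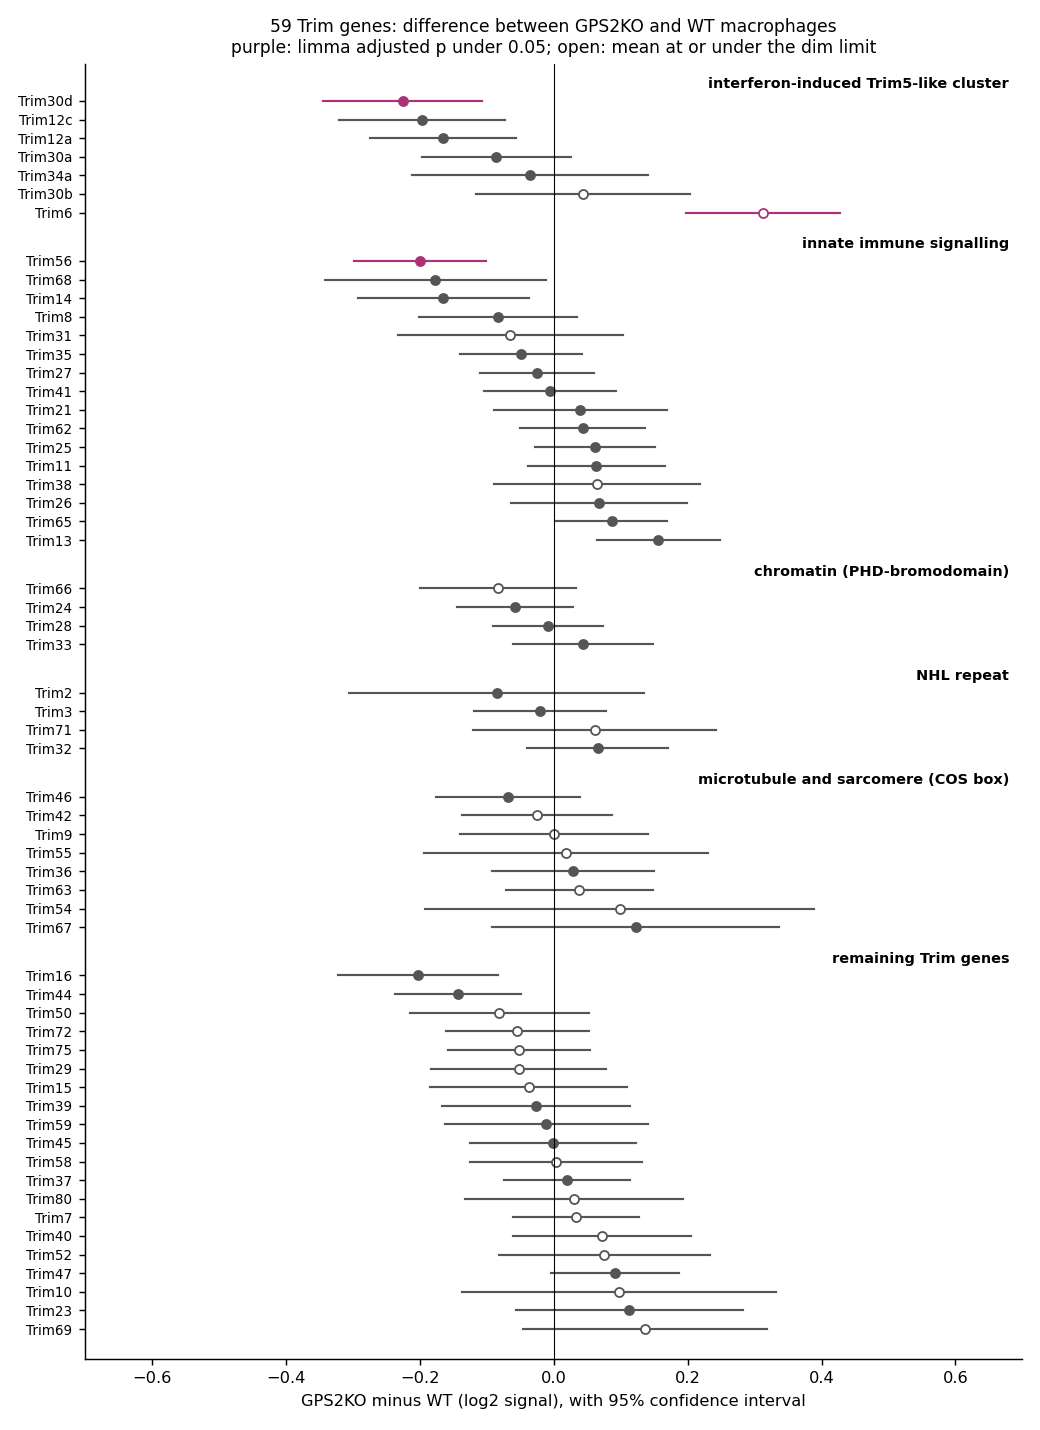
Difference between GPS2KO and WT (x axis, log2 signal, n = 3 arrays each) for each of the 59 Trim genes by group, with limma's 95% confidence interval as a bar; filled points have means above the dim limit and purple marks an adjusted p under 0.05. Only Trim30d, Trim6 and Trim56 are purple, and all intervals lie between -0.34 and 0.43.

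**Figure D2:**
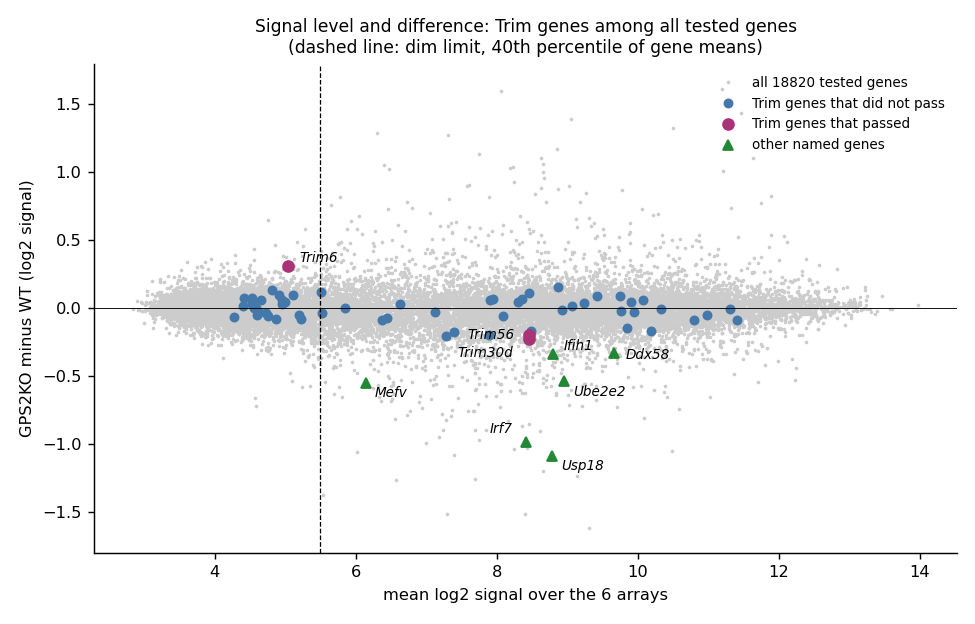
Mean log2 signal over the 6 arrays (x axis) against the difference between GPS2KO and WT (y axis, log2) for all tested genes in grey, 2 of which lie outside the axis, with Trim genes and other named genes marked. The Trim genes lie between -0.23 and 0.31, while Irf7 and Usp18 lie at -0.98 and -1.08.

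The first group of members comprises the genes of the Trim5-like cluster on chromosome 7, a run of SPRY-type TRIM genes that expanded in rodents and is best known for interferon-induced restriction of retroviruses. In RefSeq order its measured genes are Trim6, Trim34a, Trim12a, Trim12c, Trim30b, Trim30a and Trim30d. Of the 7, 1 rose, 1 fell and 5 did not pass, and the median difference was -0.09. The share called was 28.6%, beside 6.72% of all tested genes. Above the dim limit, where 5 of these 7 genes lay, 10.6% of all genes were called. These genes are shown with their promoters because 5 of the 7 hold the core of an interferon-stimulated response element, written GAAA, any 2 bases, GAAA and searched on both strands, in the 300 bases from 250 before to 50 after a start. RefSeq's promoter table (GRCm38.p6) covered 47 of the 59 Trim genes. The core stood in 9 of their 61 windows (14.8%), beside 3.44% of all 32851 windows of the table. Of these 9 windows, 6 belong to the Trim5-like cluster, where some are near copies of each other, so the windows are not independent. By gene, 8 Trim genes held the core: Trim12a, Trim12c, Trim30a, Trim30d, Trim34a, Trim21, Trim26 and Trim2. The core of a gamma-activated site, TTCNNNGAA, stood in 6 of the 61 windows (9.84%), beside 8.30% of all windows, and in no window of the Trim5-like cluster. The matches of both motifs did not overlap, since no Trim window held both.

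The stretch from 100 bases before to 30 bases from the start on is given 5′ to 3′ for the cluster genes with a core, for Trim6 and Trim56, which passed the test without one, and for Trim21, which like Trim26 holds a pair of overlapping cores. Capitals mark this core or its reverse complement. The stretches are chr7:104507820-104507949 on the minus strand for Trim30d, chr7:104465164-104465293 (minus) for 1 of the 2 listed starts of Trim30a, chr7:104315466-104315595 (minus) for Trim12a, chr7:104353320-104353449 (minus) for Trim12c, chr7:104244357-104244486 (plus) for Trim34a, chr7:102565453-102565582 (minus) for Trim21, chr7:104218695-104218824 (plus) for Trim6 and chr5:137116178-137116307 (minus) for Trim56.
Trim30d: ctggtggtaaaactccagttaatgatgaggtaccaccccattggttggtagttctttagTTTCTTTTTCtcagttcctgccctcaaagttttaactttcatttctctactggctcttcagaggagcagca
Trim30a: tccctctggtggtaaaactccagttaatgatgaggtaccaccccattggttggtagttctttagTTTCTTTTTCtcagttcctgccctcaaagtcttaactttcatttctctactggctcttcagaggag
Trim12a: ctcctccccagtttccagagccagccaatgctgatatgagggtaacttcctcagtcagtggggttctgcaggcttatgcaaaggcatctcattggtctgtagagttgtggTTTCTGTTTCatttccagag
Trim12c: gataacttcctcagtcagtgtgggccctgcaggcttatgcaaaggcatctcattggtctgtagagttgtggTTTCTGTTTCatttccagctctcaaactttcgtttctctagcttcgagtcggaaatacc
Trim34a: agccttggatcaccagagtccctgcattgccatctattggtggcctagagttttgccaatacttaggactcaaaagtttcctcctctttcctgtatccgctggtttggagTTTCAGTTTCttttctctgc
Trim21: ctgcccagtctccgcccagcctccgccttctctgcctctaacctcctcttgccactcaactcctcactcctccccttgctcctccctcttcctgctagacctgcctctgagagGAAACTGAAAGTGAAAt
Trim6: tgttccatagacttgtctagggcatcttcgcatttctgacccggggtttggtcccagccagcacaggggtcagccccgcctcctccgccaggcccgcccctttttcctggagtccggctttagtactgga
Trim56: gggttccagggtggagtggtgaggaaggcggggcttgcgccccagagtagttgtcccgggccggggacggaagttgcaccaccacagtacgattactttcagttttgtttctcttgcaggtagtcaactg

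The core begins 41 bases upstream of the start in Trim30d and 36 bases upstream in Trim30a, and the 50 bases centred on it are identical in both genes. At the other listed start of Trim30a the core lies 2 bases downstream, and 38 of its 50 bases match those of Trim30d. Trim12a and Trim12c share 48 of these 50 bases, with the core 10 bases downstream of the start in the former and 29 bases upstream in the latter. Trim30d and Trim12a share 27 of 50. Of the 8 Trim genes with a core, 1 fell and 0 rose. Of all 576 tested genes with a core in the table, 41 fell (7.12%) and 15 rose (2.60%), beside 533 falls (3.76%) and 405 rises (2.86%) among 14173 genes without one. Above the dim limit, where all 8 Trim genes with a core lay, 37 of 336 genes with a core and 511 of 8747 without one (5.84%) fell. A match describes these letters and is not evidence of binding.

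Trim30d, a close paralog of Trim30a, had log2 signals of 8.64, 8.50 and 8.59 on the WT arrays and of 8.33, 8.41 and 8.31 on the GPS2KO arrays. Every GPS2KO array lay below every WT array. Trim30d fell by 0.23 (SE 0.0512, 1.17-fold; limma adjusted p = 0.0424). The call ended after quantile normalization (limma adjusted p = 0.0538) and with a replicate block (adjusted p = 0.103). It also ended without any array other than WT replicate 2, at adjusted p up to 0.133.

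Trim30a, which restrains Toll-like receptor signalling by promoting the loss of TAB2 and TAB3, was at 11.50, 11.43 and 11.40 in WT and at 11.36, 11.41 and 11.30 in GPS2KO. Its groups overlapped, and the difference of -0.09 had a 95% confidence interval of -0.20 to 0.03 (limma adjusted p = 0.370). The difference between these 2 genes was not tested. Trim30 paralogs are near-identical in places, so their probes may share signal.

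On the probe sets used, Trim12c and Trim12a, the mouse relatives of human TRIM5, were lower on every GPS2KO array than on any WT array without passing. Trim12c was at 8.08, 7.91 and 7.95 in WT and at 7.82, 7.80 and 7.73 in GPS2KO, a difference of -0.20 (95% confidence interval -0.32 to -0.07; limma adjusted p = 0.0730). Trim12a was at 8.62, 8.60 and 8.50 in WT and at 8.44, 8.37 and 8.41 in GPS2KO, a difference of -0.17 (-0.27 to -0.06; adjusted p = 0.0841). The separation of the groups is common here, since the groups do not overlap for 27.1% of all tested genes and for 37.3% of those above the dim limit. Both genes passed when the prior variance followed the mean signal and when dim genes were dropped, at limma adjusted p of 0.0347 to 0.0493, and Trim12c also after median centring (adjusted p = 0.0498). A further probe set shared by both symbols, which the selection left out, differed by -0.22, and its groups did not overlap. The dimmer probe set of Trim12c differed by -0.10, and its groups overlapped. It was at 6.99, 6.80 and 6.87 in WT and at 6.82, 6.86 and 6.67 in GPS2KO. The separation of Trim12c thus depends on the probe set. On the platform, the dimmer probe set is numbered between those of Trim12a and Trim30b, and the one used is not. Their positions in the genome were not checked, so the signal used may not come from the cluster.

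Trim6, which builds free ubiquitin chains that activate the kinase IKK-epsilon, stands at the other end of the cluster. It was at 4.91, 4.88 and 4.87 in WT and at 5.26, 5.23 and 5.10 in GPS2KO. All arrays lay under the dim limit of 5.49, and the groups did not overlap. Trim6 rose by 0.31 (SE 0.0493, 1.24-fold; limma adjusted p = 0.00991), and leaving out any 1 array kept adjusted p between 0.00904 and 0.0447. Among all genes at or under the dim limit 0.903% passed. Trim34a, the next gene, was at 5.62, 5.60 and 5.41 in WT and at 5.45, 5.64 and 5.43 in GPS2KO, with overlapping groups. Trim30b, also dim, differed by 0.04 (95% confidence interval -0.12 to 0.20). The neighbours outside the cluster, the olfactory receptor genes Olfr649 and Olfr651, differed by -0.02 and 0.10 and did not pass.

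**Figure D3:**
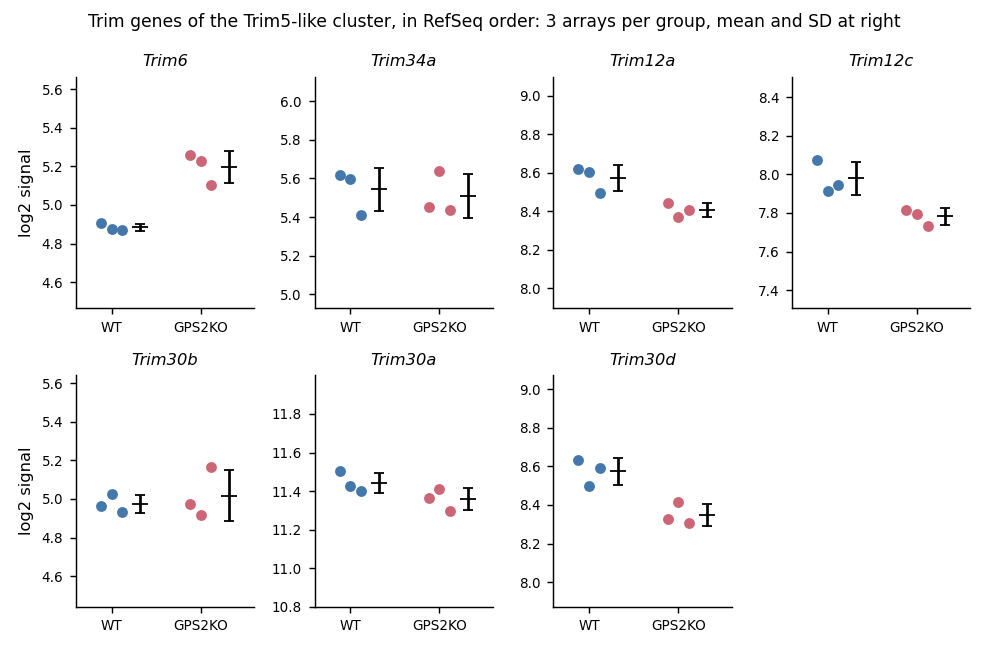
Log2 signal (y axis, scale of equal span in each panel) on the 3 WT and 3 GPS2KO arrays for the 7 measured genes of the Trim5-like cluster in RefSeq order, with mean and SD at right. The arrays of the groups separate for Trim6, which is higher in GPS2KO, and for Trim12a, Trim12c and Trim30d, which are lower on the probe sets used. These are 4 of 7 genes (57.1%), beside 27.1% of all tested genes and 37.3% of those above the dim limit. On the dimmer probe set of Trim12c, not shown, the groups overlap.

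The second group holds 16 TRIM ligases and adaptors of innate immune signalling outside the cluster. Of these, 1 fell, Trim56, 0 rose and 15 did not pass, and the median difference was 0.02. The share called was 6.25%, beside 6.72% of all tested genes. Above the dim limit, where 14 of these 16 genes lay, 10.6% of all genes were called. Trim56, which modifies cGAS and STING in the response to cytosolic DNA, was at 8.53, 8.56 and 8.57 in WT and at 8.29, 8.40 and 8.37 in GPS2KO. The groups did not overlap, and Trim56 fell by 0.20 (SE 0.0424, 1.15-fold; limma adjusted p = 0.0329). Its call ended without any 1 of the 6 arrays, at adjusted p of 0.0578 to 0.0996, and with a replicate block (limma adjusted p = 0.0682).

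Trim13, anchored in the endoplasmic reticulum and involved in protein degradation there, was at 8.81, 8.75 and 8.81 in WT and at 8.95, 8.97 and 8.92 in GPS2KO. It was higher on every GPS2KO array, by 0.16 (95% confidence interval 0.06 to 0.25), but did not pass (limma adjusted p = 0.0592). It passed after quantile normalization, with the variance trend and with dim genes dropped, at limma adjusted p from 0.0217 to 0.0476. Trim14, a RING-less adaptor of MAVS on mitochondria, was at 10.24, 10.19 and 10.38 in WT and at 10.13, 10.11 and 10.08 in GPS2KO. The groups did not overlap, and the difference of -0.16 (-0.29 to -0.04) did not pass (adjusted p = 0.134), though it did with a variance trend (adjusted p = 0.0304). Trim68 was at 7.44, 7.47 and 7.51 in WT and at 7.40, 7.35 and 7.13 in GPS2KO, where replicate 3 was the lowest, and differed by -0.18 (-0.34 to -0.01; adjusted p = 0.213). Without GPS2KO replicate 3 the difference was -0.095.

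The TRIM ligases of the RNA sensors lay close to 0. Trim25, which modifies RIG-I, was at 10.01, 10.02 and 10.07 in WT and at 10.07, 10.12 and 10.09 in GPS2KO, a difference of 0.06 (95% confidence interval -0.03 to 0.15; limma adjusted p = 0.424). Trim65, which modifies MDA5, was at 9.69, 9.72 and 9.70 in WT and at 9.80, 9.80 and 9.78 in GPS2KO, a difference of 0.09 (0.0040 to 0.17; adjusted p = 0.220). The sensors themselves fell, Ddx58, which encodes RIG-I, by 0.33 (SE 0.0425; adjusted p = 0.00396) and Ifih1, which encodes MDA5, by 0.34 (SE 0.0494; adjusted p = 0.00726). Trim21, the cytosolic receptor for antibody-coated virus, was at 9.26, 9.11 and 9.28 in WT and at 9.30, 9.22 and 9.25 in GPS2KO. Its groups overlapped, and its difference was 0.04 (-0.09 to 0.17; adjusted p = 0.744), with a pair of response element cores at its start.

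Of the bright members of this group, Trim8, which acts on TAK1 in cytokine signalling, differed by -0.08, Trim35 by -0.05 and Trim41 by -0.01. Their groups overlapped, and their 95% confidence intervals ran from -0.20 to 0.03, from -0.14 to 0.04 and from -0.10 to 0.09. The second, dimmer probe set of Trim8 differed by -0.07. Trim11, Trim26, Trim27 and Trim62 lay between -0.02 and 0.07, and the dim Trim31 and Trim38 at -0.06 and 0.06.

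**Figure D4:**
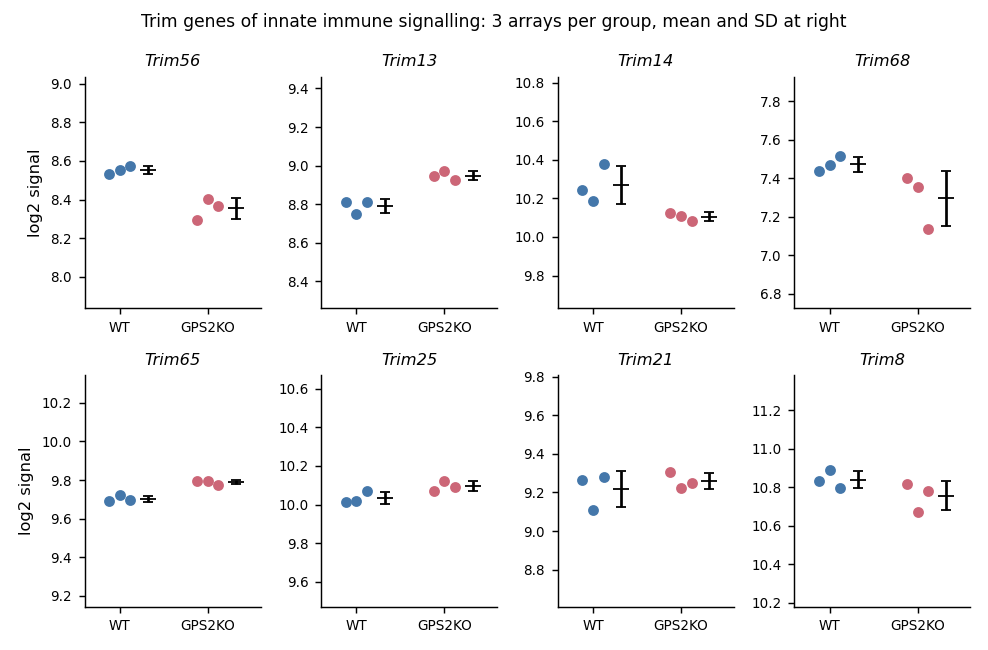
Log2 signal (y axis, scale of equal span in each panel) on the 3 WT and 3 GPS2KO arrays for 8 of the 16 Trim genes of innate immune signalling, with mean and SD at right. The arrays separate for Trim56, Trim14 and Trim68, lower in GPS2KO, and for Trim13, Trim65 and Trim25, higher in GPS2KO, but only Trim56 passed the test. With Trim62, which is not shown, 7 of the 16 genes separate (43.8%). This stands beside 27.1% of all tested genes and 37.3% of those above the dim limit.

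The chromatin-bound members carry a PHD finger and a bromodomain. Of the 4, 0 passed with limma, and 0 had an unadjusted p under 0.05. Trim28, the co-repressor that KRAB zinc finger proteins recruit to silence retroelements, was at 11.31, 11.29 and 11.32 in WT and at 11.29, 11.30 and 11.31 in GPS2KO. Its difference of -0.0083 had a 95% confidence interval of -0.09 to 0.07, and its SE of 0.0352 was the lowest of the 59. Trim24, a cofactor of nuclear receptors, differed by -0.06, Trim33, a partner of SMAD4, by 0.04, and the dim Trim66 by -0.08.

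The NHL-repeat members, known for RNA binding and for roles in nerve and muscle, numbered 4, and the members with a COS box, which bind microtubules or sarcomeres, numbered 8. None of these 12 passed with limma, and 0 had an unadjusted p under 0.05. Trim32, whose human counterpart is mutated in a limb-girdle muscular dystrophy, differed by 0.07 and Trim2, a neuronal ligase, by -0.08 (95% confidence interval -0.31 to 0.14). Trim71, a regulator of stem cells that is dim here, differed by 0.06 on the probe set used and by -0.19 on its other probe set. Its 2 probe sets thus differ in sign. Of the COS-box genes 5 were dim, among them the muscle ligases Trim54, Trim55 and Trim63, and the differences ran from -0.07 for Trim46 to 0.12 for Trim67. Both moved with single arrays, Trim67 to 0.018 without GPS2KO replicate 2 and to 0.21 without GPS2KO replicate 1, and Trim46 to -0.034 without WT replicate 2.

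The remaining 20 Trim genes included 8 above the dim limit, and 0 passed with limma. Of them, 2 had an unadjusted p under 0.05. Trim16, a RING-less member that helps clear damaged lysosomes, was at 7.38, 7.32 and 7.44 in WT and at 7.12, 7.25 and 7.17 in GPS2KO. It was lower on every GPS2KO array, by 0.20 (95% confidence interval of the difference -0.32 to -0.08), with limma adjusted p = 0.0601. Trim44, which has a ubiquitin-binding zinc finger in place of the RING domain, was at 9.90, 9.94 and 9.92 in WT and at 9.75, 9.83 and 9.75 in GPS2KO, a difference of -0.14 (-0.24 to -0.05; adjusted p = 0.0855). Both passed after median centring and without dim genes, and Trim44 also with a variance trend. Trim47, the neighbour of Trim65, differed by 0.09, and Trim23, which joins a TRIM to an ARF-type GTPase domain, by 0.11. Trim37, Trim39, Trim45 and Trim59 lay between -0.03 and 0.02. The 12 dim genes of this group ran from -0.08 for Trim50 to 0.14 for Trim69.

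The TRIM proteins that carry other symbols were 4. Mefv, which encodes pyrin (TRIM20), the sensor of an inflammasome, was at 6.31, 6.42 and 6.51 in WT and at 5.77, 5.91 and 5.91 in GPS2KO. The groups did not overlap, and Mefv fell by 0.55 (SE 0.0635, 1.46-fold; limma adjusted p = 0.00257), with adjusted p up to 0.0144 without any 1 array. Mid1, a microtubule-bound ligase, differed by 0.14 (adjusted p = 0.0818), its relative Mid2 by 0.07 and Pml, the organizer of nuclear bodies, by -0.07 (adjusted p = 0.429).

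The enzymes that supply TRIM ligases with ubiquitin were also measured. Of 12 tested, all above the dim limit, 1 fell and 1 rose (16.7%), beside 10.6% of all genes above it. Ube2e2, an E2 enzyme, was at 9.27, 9.11 and 9.29 in WT and at 8.70, 8.71 and 8.64 in GPS2KO, and fell by 0.54 (SE 0.0570; limma adjusted p = 0.00178). Ube2w, which attaches the first ubiquitin to TRIM21 and TRIM5, rose by 0.18 (SE 0.0380, limma adjusted p = 0.0330). The call was lost when any 1 array was left out (adjusted p 0.0676 to 0.115). It was also lost after median centring (adjusted p = 0.0518) and with a replicate block (adjusted p = 0.0851). The common partners Ube2d3, Ube2n and Ube2v1 lay between -0.04 and 0.03.

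In the ISG15 pathway, a ubiquitin-like system induced by interferon, 3 of 5 genes fell and 2 did not pass, beside 3.83% of all tested genes that fell. With median centring or the variance trend 4 of the 5 fell, Ube2l6 among them. Under these settings 1061 and 1248 of all 18820 genes fell. Usp18, the protease that removes ISG15, was at 9.316, 9.001 and 9.667 in WT and at 8.101, 8.507 and 8.125 in GPS2KO and fell by 1.08 (SE 0.173; limma adjusted p = 0.0103). Uba7, the enzyme that activates ISG15, fell by 0.30 (limma adjusted p = 0.00901), and Isg15, dim here, by 0.29 (limma adjusted p = 0.0183). The Isg15 call ended without WT replicate 1 or 3 or GPS2KO replicate 1 or 3, at adjusted p up to 0.0698. It also ended with a replicate block (limma adjusted p = 0.0608). Isg15 was measured by 1 probe set, numbered on the platform near those of Trim39 and Trim40 on chromosome 17. Where it lies in the genome was not checked, so its fall may not be that of the Isg15 gene. Of 21 partners and substrates of TRIM ligases in sensing of nucleic acids and Toll-like receptor signalling, 3 fell (14.3%) and 18 did not pass, with a median of -0.02. All 21 lay above the dim limit, where 6.06% of all genes fell. The falls were Ddx58, Ifih1 and Irf7, a transcription factor of the interferon response, which fell by 0.98 (SE 0.100; adjusted p = 0.00149). Of 10 genes that carry the interferon signal, Irf1 and Irf9 fell, by 0.33 (adjusted p = 0.00953) and 0.21 (adjusted p = 0.0165), and 8 did not pass. These 2 falls were 20% of the list, beside 3.83% of all genes and 6.06% of those above the dim limit, where 9 of the 10 lay. Leaving out WT replicate 1 or GPS2KO replicate 1, 2 or 3 ended the Irf9 call, at adjusted p up to 0.0695. A replicate block ended it too (limma adjusted p = 0.0544). The 95% confidence interval of Irf7, -1.22 to -0.75, and that of Usp18, -1.49 to -0.68, lay below the lowest bound of the Trim genes.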

How the data were processed

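Expression was measured on Affymetrix arrays, 1 per sample. The authors deposited 1 log2 value per probe set and array, made with RMA in the R package oligo, per the submitters' processing notes; their versions are not given in the sources used here. Deposited values spanned 2.42 to 13.99, which shows the log2 scale. RMA gives the arrays nearly the same distribution (medians 5.57 to 5.60), which would hide a shift common to most genes. Of 35556 probe sets, 21218 had 1 symbol in GEO's platform annotation, 1881 several and 12457 were unnamed. The 4 Trim probe sets with several symbols, which hold Trim17, Trim43a to c, Trim60 and Trim61 and a sequence of both Trim12a and Trim12c, were left out.

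All 18820 genes were fitted with limma 3.58.1 (R 4.3.3; lmFit, eBayes, group as the only term), and p-values were 2-sided and adjusted over all of them by Benjamini-Hochberg. The calculation was tested on simulated data, in which every planted difference was larger in size than that of any Trim gene. The simulation therefore does not show how often differences as small as those of the Trim genes are found. Alternatives were quantile normalization, median centring, a variance trend, dropping dim genes, the mean of a gene's probe sets, keeping probe sets with several symbols, a replicate block and leaving out each array. Members, gene lists and settings were chosen with earlier results of these data known. Named were all Trim genes that passed, the 8 next by p and the 5 brightest above the dim limit, the extremes of each group and the list members that passed; others were named after their values were seen. The lists held 16 symbols not tested. Arrays have no read depth, so their number limits the precision.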

Additional observations from a re-analysis of the deposited data

How the results depend on the processing

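Trim6 passed under each setting that tested it. The number of Trim genes that rose was 2 after quantile normalization and with a variance trend, and 1 under every other setting. The number that fell was 1 after quantile normalization, 5 after median centring, 6 with a variance trend, 6 without dim genes and 0 with a replicate block; leaving out 1 array gave 0 to 1. The share of Trim genes called was 5.08% beside 7.11% of all genes after quantile normalization and 10.2% beside 8.08% after median centring. It was 13.6% beside 11.6% with a variance trend, 19.4% beside 17.4% without dim genes and 1.69% beside 4.58% with the block. Without WT replicate 2 it was 3.39% beside 4.47%. Leaving out any 1 other array gave 1.69% beside 3.98% to 4.46% of all genes. The causes were not tested. Replicate numbers showed no sign of pairing the samples. Correlations of same-numbered deviations were 0.0035, 0.026 and -0.0060, and 2 of 6 samples correlated best with their own number. With 3 arrays per group a pairing could go unseen. Of the E2 enzymes, 0 rose after median centring, with the replicate block or with any 1 array left out (0 to 0). Of the TRIM proteins under other symbols, 1 rose with a variance trend, beside 926 of all 18820 genes. When dim genes were dropped 1 rose, beside 808 of the 11292 genes kept. Of the interferon signalling genes, 5 fell with a variance trend, beside 1248 of all 18820 genes. With the replicate block 1 fell, beside 492 of all genes. With 1 array left out 1 to 2 fell, beside 419 to 503 of all genes. Signs turned only among differences near 0: over the arrays left out, Trim41 ran from -0.0327 to 0.0132, Trim34a from -0.10 to 0.0018 and Trim21 from -0.0144 to 0.0721. Gps2 and Mefv passed under every setting.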
